A study of Medicago truncatula with 15 samples.

Results

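The 200 loci described here were chosen because they were far higher in mature leaves than in shoot apices of WT *Medicago truncatula*. In shoot apices of the *Mtsoc1* triple mutant they had to be less than 2-fold above WT apices. They were taken from 50021 loci. TPM, a level corrected for transcript length and library size that was deposited as one value per group, was summed over the transcripts of a locus, loci with at least 20 TPM in WT leaves were kept (4409 loci), and of these the 4298 loci whose triple mutant to WT apex ratio was below 2 were ranked by the WT leaf to WT apex ratio, with 1 TPM added to each value. The first 200 were taken. No bound was set on the apex level itself, and 21 members had at least 100 TPM in WT apices, the highest 1035 TPM. The bound concerns the triple mutant alone, and *Mtsoc1a* apices and leaves had no part in the choice. Because the WT leaf, WT apex and triple mutant apex values chose the members, differences between those groups, and between any of them and *Mtsoc1a*, are given as a description.

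The 15 libraries formed groups of 3: leaves of *Mtsoc1a* and of WT, both 15 days old, and shoot apices of 83-day-old non-flowering triple mutants, of 15-day-old *Mtsoc1a* and of 15-day-old WT plants, the WT being ecotype R108. *Mtsoc1a* plants carry a *Tnt1* retrotransposon insertion in *MtSOC1a*. The triple mutants carry CRISPR-Cas9 edits in *MtSOC1a*, *MtSOC1b* and *MtSOC1c* and come from one line, named Mtsoc1-4 in the sample labels and Mtsoc1-2 in the text of the study. All plants shared the R108 background, germinated seed held for 3 weeks in the cold, 16 h light at 22 °C and harvest 4 h after dawn. A leaf library held one fully expanded trifoliate leaf from each of 2 plants, and an apex library held upper stems with their apices from 3 plants. Genotype and age cannot be told apart in any comparison with the triple mutant. The labels describe construction of its 3 libraries apart from that of the other 12 and name no batch, so whether a library batch coincided with that group is not given in the sources used here.

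A mature leaf blade devotes much of its messenger RNA to photosynthesis, carbon fixation and the reduction of nitrate to ammonium. A shoot apex holds the meristem, with young leaf primordia and stem tissue around it, and genes of mature leaf cells are turned on as cells leave the meristem and differentiate. SOC1 proteins are MADS-box transcription factors that promote the change of the shoot apex to flowering. The deposited files pair the loci with no gene names, and 0 of the 50021 locus identifiers matched the reference gene table used here, so most members are given by identifier and the text gives a function only for those that the study annotates. No sequence of a member is printed for the same reason.

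Triple mutant libraries held 13224488 to 15891830 estimated counts, against 30574854 to 38896407 for the 15-day-old plants, so levels of scarce transcripts were less precise in the triple mutant. *MtSOC1a* (Medtr7g075870) was at 0 to 0.453 CPM (estimated counts scaled to library size) in *Mtsoc1a* leaves, against 8.62 to 9.44 CPM in WT leaves, and at 0.516 to 1.01 CPM in *Mtsoc1a* apices, against 13.5 to 19.0 CPM in WT apices. It was at 20.8 to 23.9 CPM in the triple mutant, where its level does not check the label, since the edits target the sequence of the gene and an edited transcript can still be counted. Of 8 apex markers, *MtSOC1a* among them, 5 were at 0 in each leaf group. The summed level of the 8 was 2.43 to 7.43 CPM in *Mtsoc1a* leaves and 11.1 to 15.1 CPM in WT leaves. In apices it was 63.9 to 69.6 CPM in the triple mutant, 53.4 to 54.7 CPM in *Mtsoc1a* and 47.6 to 63.4 CPM in WT. The triple mutant sum came mostly from *MtSOC1a*, at 20.8 to 23.9 CPM, and *MtSVPc*, at 30.7 to 35.8 CPM. *MtSVPc* was at 17.8 to 21.9 CPM in WT apices. By contrast, *HDL*, *MtFDa*, Medtr1g019130 and Medtr4g084550 had triple mutant ranges below their WT apex ranges. *MtFDa* had 0.495 to 1.51 CPM, against 1.93 to 3.05 CPM in WT apices. Ranges of *MtTFL1c* and *WOX9* overlapped with those of WT apices. The summed level of 8 floral genes, in leaves mostly from *AP3b*, *AGa*, *SEP3a* and *AP3a*, went against the tissue labels: it was 48.4 to 58.5 CPM in *Mtsoc1a* leaves and 48.7 to 63.0 CPM in WT leaves, and 3.47 to 10.6 CPM across the apex libraries. Within that list *LFY*, at 0 in every leaf library and 1.04 to 4.00 CPM in apices, and *SEP3b*, at 0 to 0.0465 CPM in leaves and 0.117 to 0.775 CPM in apices, were higher in apices.

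The members took a far larger part of the messenger RNA counted in leaves than of that counted in apices. Their share of estimated counts was 18.9, 19.5 and 19.0% in *Mtsoc1a* leaves and 20.3, 19.99 and 20.1% in WT leaves. It was 1.501, 1.21 and 1.28% in triple mutant apices, 1.24, 1.11 and 1.06% in *Mtsoc1a* apices and 1.30, 0.885 and 1.21% in WT apices. No leaf library overlapped with any apex library, and among apices the first triple mutant library was the highest and the second WT library the lowest. In bulk tissue, fewer cells of a type and less RNA per cell cannot be told apart.

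**Figure D1:**
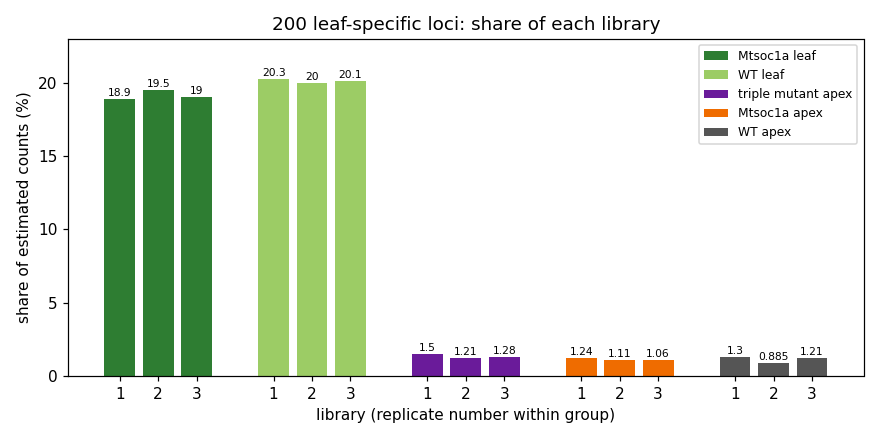
Share of the estimated counts (y axis, %) that fell on the 200 members in each of the 15 libraries, 1 bar per library, by group along the x axis. The 6 leaf bars sit between 18.9 and 20.3%, and the 9 apex bars between 0.885 and 1.501%.

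A few loci carried much of this share. The 10 members with the highest WT leaf TPM took 9.67 to 11.6% of the counts of a leaf library and 0.397 to 0.815% of those of an apex library, and the other 190 members took 7.97 to 10.1% and 0.487 to 0.686%. Median TPM over the members was 111 in *Mtsoc1a* leaves and 140 in WT leaves, against 6.98 in triple mutant apices, 6.86 in *Mtsoc1a* apices and 5.71 in WT apices. In WT leaves 27 members reached at least 1000 TPM and 80 were below 100 TPM. In apices, 33 members were under 1 TPM in the triple mutant, 32 in *Mtsoc1a* and 27 in WT, and 17 were under 1 TPM in all 3 apex groups. No member was at 0 in all 9 apex libraries.

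By the values that chose them, the members ranged from 407-fold to 10.1-fold higher in WT leaves than in WT apices, with a median ratio of 16.5. The steepest was Medtr1g025220, which had 588 TPM in WT leaves and 0.448 TPM in WT apices. Medtr3g094080 followed with a ratio of 169, Medtr8g012565 with 155, Medtr8g032690 with 145 and Medtr3g086050 with 126. At the other end, Medtr3g111840, Medtr5g030950 and Medtr1g076570 were the last loci taken, at ratios of 10.10, 10.08 and 10.07, and Medtr5g016100, at 10.01, was the first left out. Of the 111 loci with at least 20 TPM in WT leaves that the triple mutant bound removed, 28 would have ranked among the members by their leaf to apex ratio. Just inside the bound stood Medtr4g127000, Medtr3g449790 and Medtr6g086485, at triple mutant to WT apex ratios of 1.98, 1.97 and 1.97, and just outside it Medtr1g102810, Medtr1g052135 and Medtr2g450310, at 2.005, 2.02 and 2.02. Around the level threshold, Medtr1g105865 was kept with 20.2 TPM in WT leaves and Medtr3g018790 was left out with 19.6 TPM.

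*Mtsoc1a* leaves and apices, which the choice did not use, tested whether the members were also higher in leaves than in apices in a second genotype. All 200 members passed the filter on low counts in these 6 libraries, and 198 were called higher in *Mtsoc1a* leaves than in *Mtsoc1a* apices (edgeR quasi-likelihood test on scaled counts, p adjusted by Benjamini-Hochberg of at most 0.05, with at least a 2-fold change). The filter also keeps a locus that is high in leaves alone. Over the 9 apex libraries 15 members did not pass it. In the *Mtsoc1a* fit these passed through their leaf libraries, so their direction was largely fixed in advance. The same holds for members that were scarce in *Mtsoc1a* apices alone, such as Medtr7g102450 with 11, 6 and 13 counts there. Such members were not counted, so 15 is not the full number. No member was called lower, by edgeR or by DESeq2, and none lay below 0 at an unadjusted edgeR p under 0.05. Over all 21783 loci tested, 22.3% were called higher in leaves and 25.6% lower (34.1% lower by adjusted p alone). The median log2 fold change of the members was 5.34, with quartiles of 4.84 and 6.21, while the median over all tested loci was -0.07. Of the 4407 tested loci with at least 20 TPM in WT leaves, 53.1% were called higher in *Mtsoc1a* leaves. For 199 of the 200 members the lowest *Mtsoc1a* leaf library lay above the highest *Mtsoc1a* apex library, as it did for 32.8% of the loci tested, and the reverse held for 0 members and 40.6% of the loci. By TPM, the leaf to apex ratio in *Mtsoc1a* plants had a median of 14.5 over the members and was at least 10 for 162 of them, while its median over all loci with at least 20 TPM in WT leaves was 0.947.

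Fold changes between tissues depended on how the libraries were scaled. The trimmed mean of M values (TMM) factors averaged 0.639 in leaf libraries and 1.35 in apex libraries, a 2.11-fold difference. The TPM ratios, with 1 TPM added to each value, are therefore not on the same scale as fold changes on scaled counts. With library totals in place of TMM, the median difference in log2(CPM + 1) was 3.77 for the members and -0.99 for all loci tested, a setting chosen after the data were seen. With TMM the same measure was 4.84 for the members and -0.12 for all loci.

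**Figure D2:**
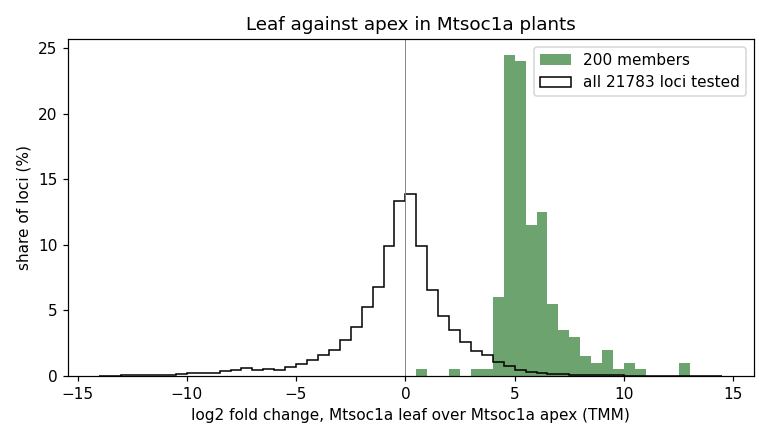
Distribution of the log2 fold change of *Mtsoc1a* leaf over *Mtsoc1a* apex (x axis, TMM-scaled counts) as a share of loci (y axis, %), for the 200 members (filled) and all 21783 loci tested (outline). The members lie between 0.98 and 12.95 around a median of 5.34, and all loci lie around a median of -0.07.

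The largest contrasts belonged to loci that were almost without counts in apices. Medtr8g032690 had 28.1, 20.4 and 25.3 CPM in *Mtsoc1a* leaves and 0 in all 3 *Mtsoc1a* apex libraries, which is at least 1087-fold higher in leaves when 3 counts are put in place of the 0 of the group. Medtr7g102465 and Medtr7g099265 were also at 0 in *Mtsoc1a* apices, and were at least 227-fold and at least 118-fold higher in leaves. Medtr7g490330 had 46.7, 214 and 163 CPM in *Mtsoc1a* leaves and 2 counts in *Mtsoc1a* apices, a ratio of 9324 with a 95% counting interval of 2580 to 76999. Its leaf libraries differed widely, while no apex library of any group held more than 0.117 CPM. Medtr1g025220, the steepest member in WT, had 137, 38.6 and 96.6 CPM in *Mtsoc1a* leaves and 0.0861, 0.0469 and 0.116 CPM in *Mtsoc1a* apices (log2 fold change 10.08, SE 0.65, adjusted p = 4.2e-06). Medtr7g102450 had 480, 249 and 375 CPM in *Mtsoc1a* leaves and 0.237, 0.141 and 0.302 CPM in *Mtsoc1a* apices (10.70, SE 0.36, adjusted p = 1.4e-07). For each of these loci the leaf and apex libraries were far apart. Each was too scarce in *Mtsoc1a* apices to pass the filter there and entered the fit through its leaf libraries. The direction of these loci was thus largely fixed in advance. The median over the members was also 5.34 with the 3 members at 0 set to their bounds. That was fixed in advance, since all 3 bounds lie above the median.

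The most abundant members were 4 loci with neighbouring identifiers on chromosome 7, Medtr7g007120, Medtr7g007200, Medtr7g007220 and Medtr7g007230. They stood at 18365 to 35743 TPM in *Mtsoc1a* leaves and 17381 to 35337 TPM in WT leaves, against 586 to 1191 TPM in triple mutant apices, 436 to 1132 TPM in *Mtsoc1a* apices and 422 to 1035 TPM in WT apices. Medtr7g007120, the highest of them, had 24070, 33333 and 27291 CPM in *Mtsoc1a* leaves and 427, 358 and 319 CPM in *Mtsoc1a* apices (log2 fold change 6.33, SE 0.24, adjusted p = 2.0e-07). The other 3 gave log2 fold changes of 6.39, 6.99 and 6.38. Salmon divides reads that fit several transcripts, so the split between neighbours that share sequence is uncertain, and whether these loci share sequence was not examined. Medtr3g068030 on chromosome 3 followed with 14511 TPM in *Mtsoc1a* leaves and 16025 TPM in WT leaves, and it had the highest TPM of any member in triple mutant apices, 1421 TPM, against 921 TPM in *Mtsoc1a* apices and 856 TPM in WT apices. It had 45871, 53411 and 46307 CPM in *Mtsoc1a* leaves and 1472, 1266 and 1061 CPM in *Mtsoc1a* apices (log2 fold change 5.33, SE 0.22).

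A second run of 4 neighbours lay on chromosome 8, and its members were of moderate level. Medtr8g070830, Medtr8g070840, Medtr8g070890 and Medtr8g070910 stood at 27.0 to 431 TPM in *Mtsoc1a* leaves and 34.0 to 349 TPM in WT leaves, against 0.950 to 34.9 TPM in *Mtsoc1a* apices. Their log2 fold changes between *Mtsoc1a* leaves and apices were 4.95, 7.04, 5.36 and 4.92. Counting runs of at least 2 identifiers no more than 5 loci apart, 26 members fell into 11 runs. Of the 4409 loci with at least 20 TPM in WT leaves, 2961 fell into 1011 such runs. A larger set holds more loci within that distance of each other, so these counts cannot be compared directly. Whether the members were clustered was not tested. Members came from all 8 chromosomes, and 6 came from unplaced scaffolds. Chromosome 6 held 13 (6.5%, beside 5.17% of the loci with at least 20 TPM in WT leaves). Chromosome 8 held 30 (15.0%, beside 11.3%). Most members (175) had a single transcript in the table.

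In *Mtsoc1a* plants 2 members were not called. Medtr6g034920, which the study annotates with oxidation-reduction, had 182, 177 and 153 CPM in *Mtsoc1a* leaves and 46.5, 90.7 and 137 CPM in *Mtsoc1a* apices (log2 fold change 0.98, SE 0.32, adjusted p = 0.027), which fell short of the 2-fold limit. With library totals its difference in log2(CPM + 1) turned to -0.12, the only member below 0 under that scaling. Its *Mtsoc1a* apex level overlapped with neither WT apices, at 6.27, 6.97 and 4.84 CPM, nor triple mutant apices, at 8.25, 6.50 and 5.05 CPM. Medtr3g467100, annotated with lipid binding, had 44.0, 0.329 and 8.51 CPM in *Mtsoc1a* leaves and 0.861, 2.53 and 8.80 CPM in *Mtsoc1a* apices (2.17, SE 1.31, adjusted p = 0.18). It was the only member whose leaf and apex libraries overlapped in *Mtsoc1a* plants, and its leaf libraries were further apart than those of any other member in that group (coefficient of variation 132%, against a median of 12.7% over the members).

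**Figure D3:**
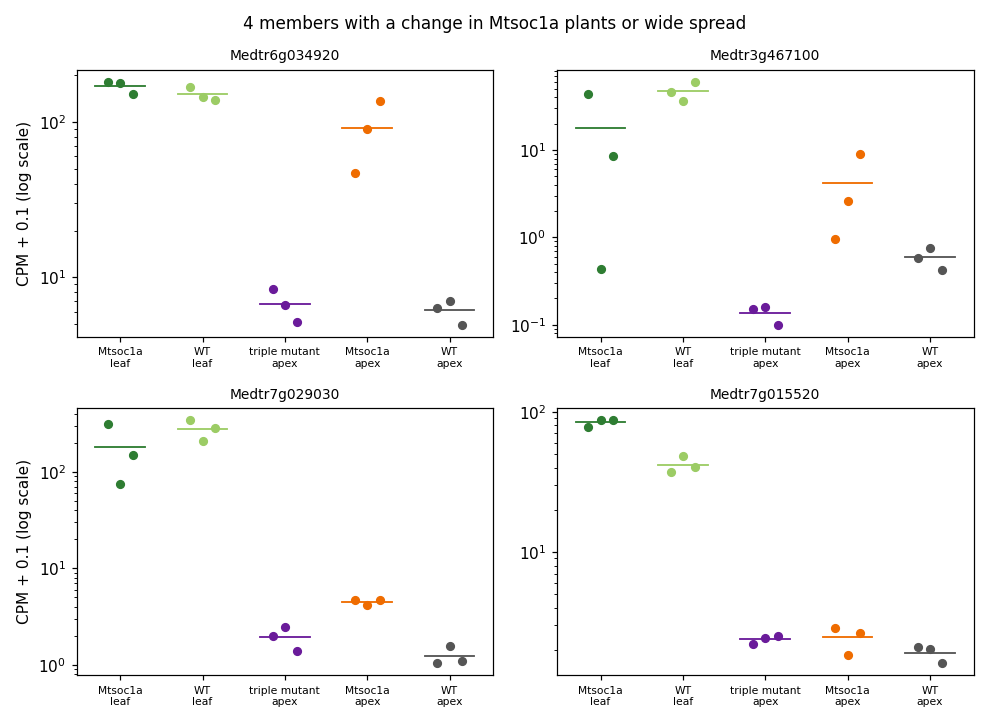
TMM-normalized CPM plus 0.1 (y axis, log scale) of Medtr6g034920, Medtr3g467100, Medtr7g029030 and Medtr7g015520 in the 5 groups (x axis), 1 point per library and a line at the group mean. Medtr6g034920 reaches 46.5 to 137 CPM in *Mtsoc1a* apices while the other 2 apex groups stay between 4.84 and 8.25 CPM, and Medtr3g467100 spreads between 0.329 and 44.0 CPM in *Mtsoc1a* leaves.

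Whether loss of *MtSOC1a* alone moved the members was compared within each tissue. The WT libraries in both comparisons had a part in the choice, so the counts and p values are a description. In leaves, 1 of 200 members was called higher in *Mtsoc1a* than in WT (0.193% of 19706 loci tested) and 0 lower (0.0457%). By DESeq2 2 were called higher and 1 lower, without a share over all loci given here. At an unadjusted edgeR p under 0.05 there were 9 higher and 37 lower, beside 2117 of the 19706 loci tested in both directions together. The median log2 fold change over the members was -0.09, and 128 of 200 were at 0 or below, among loci picked for a high value in WT leaves. All 3 *Mtsoc1a* leaf libraries lay above all 3 WT leaf libraries for 14 members (7.4% of loci tested) and below them for 42 (9.15%). The member called was Medtr7g015520, with 78.3, 86.8 and 87.2 CPM in *Mtsoc1a* leaves and 37.3, 48.4 and 40.1 CPM in WT leaves (1.03, SE 0.13, adjusted p = 0.024). Its libraries did not overlap between the genotypes. The call was lost without *Mtsoc1a* leaf replicate 2 or 3 or without WT leaf replicate 1 or 3, where the adjusted p was 0.057, 0.16, 0.094 and 0.10 and the log2 fold change 0.98, 0.99, 0.94 and 1.02.

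In apices, 185 members passed the filter on low counts over the 9 apex libraries. The 15 others had at most 21 counts in any one apex library, and WT leaf levels of 20.2 to 588 TPM. Of the 185, 2 were called higher in *Mtsoc1a* than in WT apices (0.155% of 22555 loci tested) and 0 lower (0.0709%). By DESeq2 4 were called higher and 1 lower, without a share over all loci given here. At an unadjusted edgeR p under 0.05 there were 12 higher and 8 lower, beside 2740 of the 22555 loci tested in both directions together. By adjusted p alone there were also 2 higher, where 0.2% of loci were called. All 3 *Mtsoc1a* apex libraries lay above all 3 WT apex libraries for 15 members (7.76% of loci tested) and below them for 10 (9.07%), and the median log2 fold change was -0.06. Medtr7g029030, listed by the study under hydrogen peroxide catabolism, had 4.56, 4.03 and 4.55 CPM in *Mtsoc1a* apices and 0.946, 1.47 and 1.01 CPM in WT apices (1.95, SE 0.28, adjusted p = 0.019), and 318, 74.9 and 149 CPM in *Mtsoc1a* leaves. Medtr6g034920 was the other (3.93, SE 0.42, adjusted p = 0.025). Its leaf level was 169, 146 and 138 CPM in WT, close to that in *Mtsoc1a* leaves (log2 fold change 0.21, SE 0.11, adjusted p = 0.57). Both calls were lost without WT apex replicate 1 or 3, with adjusted p values of 0.081 and 0.13 for Medtr7g029030 and 0.089 and 0.15 for Medtr6g034920, and that of Medtr6g034920 also without *Mtsoc1a* apex replicate 2 (0.085). The log2 fold changes then were 1.83 and 1.86 for Medtr7g029030 and 3.79 to 3.96 for Medtr6g034920.

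By TPM, 6 members were at least 2-fold higher in *Mtsoc1a* than in WT apices, with 1 TPM added to both. They were Medtr6g034920 at 9.91, Medtr6g037720 at 3.70, Medtr3g467100 at 3.27, Medtr2g034440 at 2.77, Medtr7g029030 at 2.57 and Medtr3g083370 at 2.005, the last chosen after its value was seen. Medtr8g104460, at 0.459 and named for the same reason, was the only member at 0.5 or less. The median ratio was 1.04, and 1.02 over all loci with at least 20 TPM in WT leaves. A level less than 2-fold above WT apices was imposed by the choice for the triple mutant. By TPM such a level was also measured in *Mtsoc1a* apices for all members other than these 6. The share of all loci at such a TPM ratio was not counted. On scaled counts only 0.155% of all loci tested were called higher in *Mtsoc1a* apices, so a lack of calls is not particular to the members. A locus that was not called is not thereby shown to be unchanged.

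Triple mutant apices were compared with WT apices as a description, since both chose the members and the choice removed loci that were 2-fold higher. By TPM the median ratio of the triple mutant to WT was 1.24 over the members and 1.06 over all loci with at least 20 TPM in WT leaves. On scaled counts the median log2 fold change of the 185 members was 0.37, and 130 lay above 0. At the 2-fold limit 2 members were called higher (2.26% of loci tested) and 13 lower (6.4%), and by adjusted p alone 42 were higher (11.5%) and 16 lower (12.4%). All 3 triple mutant libraries lay above all 6 apex libraries of 15-day-old plants for 68 members (16.2% of loci tested) and below them for 16 (15.7%).

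The comparison with *Mtsoc1a* apices uses the same triple mutant libraries, whose level the choice bounded, and is likewise a description. In it, 20 members were called higher (3.72% of loci tested) and 19 lower (8.8%), with a median of 0.45. Among the members called higher, the lowest p belonged to Medtr3g449790, with 25.2, 24.8 and 25.02 CPM in triple mutant apices and 9.23, 10.2 and 10.2 CPM in *Mtsoc1a* apices (1.33, SE 0.12). WT apices had 15.1, 11.3 and 13.4 CPM, so the triple mutant libraries stood above those of both genotypes. Medtr5g094160 was called higher in both comparisons, with 18.0, 15.3 and 16.6 CPM in triple mutant apices against 7.45, 5.89 and 7.77 CPM in *Mtsoc1a* and 9.13, 6.07 and 9.64 CPM in WT apices. Its log2 fold change was 1.23 (SE 0.18) against *Mtsoc1a* and 1.01 (SE 0.18) against WT, which is close to the 2-fold limit. Medtr8g070840 of the chromosome 8 run was the other member called higher than both, at 7.74, 6.26 and 4.56 CPM against 2.88, 1.59 and 0.928 CPM in *Mtsoc1a* and 3.15, 2.20 and 2.39 CPM in WT apices (1.26 against WT, SE 0.36). The call of Medtr8g070840 against WT was lost without triple mutant replicate 1 or 2, without WT apex replicate 2 or 3 and with counts per transcript, at log2 fold changes of 1.07 to 1.26. That of Medtr5g094160 was lost without triple mutant replicate 1 or 3, without WT apex replicate 2 and with no filter, at 0.82 to 0.997. Medtr4g071880, Medtr4g132020 and Medtr1g086585 were also among the 5 lowest p values, at 1.51, 1.18 and 1.08 against *Mtsoc1a*. Without triple mutant replicate 1 the members called higher numbered 0 against WT and 13 against *Mtsoc1a*, without a share over all loci given here.

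The members lower in the triple mutant included several of high leaf level. The 13 of 185 called lower than WT apices stand beside 6.4% of all loci tested. They are therefore described singly and not as a trait of the members. Medtr5g059820 and Medtr3g073180 belong to the nitrate assimilation term of the study, the pathway that turns nitrate into ammonium and is most active in illuminated leaves. The term holds 4 loci, all of which the study chose as lower in these triple mutant samples, so their direction is not independent. Medtr5g059820 had 28.9, 12.0 and 10.7 CPM in triple mutant apices, against 223, 250 and 332 CPM in *Mtsoc1a* apices and 245, 208 and 189 CPM in WT apices. Its leaf libraries held 4560, 4270 and 4389 CPM in *Mtsoc1a* and 5296, 5192 and 5142 CPM in WT. The log2 fold change of the triple mutant was -3.63 against WT (SE 0.41) and -3.97 against *Mtsoc1a* (SE 0.41). Medtr3g073180 had 1.01, 0.936 and 0.545 CPM in triple mutant apices, against 12.1, 11.8 and 22.7 CPM in *Mtsoc1a* apices and 16.1, 12.9 and 12.7 CPM in WT apices, with 688 to 953 CPM in *Mtsoc1a* leaves and 948 to 1474 CPM in WT leaves. It fell by 4.07 on the log2 scale against WT (SE 0.33). For both loci the triple mutant libraries lay well below the lowest library of either genotype.

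The same order was measured for 3 further members. Medtr4g086020, listed by the study under response to nitrogen compounds, a term looked at after its values were seen, had 20.4, 5.50 and 10.7 CPM in triple mutant apices, against 199, 232 and 289 CPM in *Mtsoc1a* apices and 250, 215 and 216 CPM in WT apices (-4.21 against WT, SE 0.44). Medtr2g092930 had 77.4, 53.0 and 63.2 CPM, against 203, 165 and 218 CPM in *Mtsoc1a* and 217, 183 and 172 CPM in WT apices (-1.56 against WT, SE 0.15). Medtr4g107630 had 12.6, 6.26 and 7.43 CPM, against 37.3, 44.4 and 45.0 CPM in *Mtsoc1a* and 44.9, 39.4 and 36.3 CPM in WT apices (-2.19 against WT, SE 0.22). In leaves these 3 loci were called in neither direction between *Mtsoc1a* and WT, at adjusted p values of 0.61, 0.60 and 0.42. Medtr7g034345 completed the 5 lowest p values among members lower than WT apices, counting Medtr3g073180, at -1.80 (SE 0.25).

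Of the 13 members lower than WT apices, 12 were also called lower than *Mtsoc1a* apices. Both comparisons use the same 3 triple mutant libraries in one fit, so they are not independent. The share of such an overlap over all loci was not counted. Medtr5g026290 was the exception, chosen after its values were seen, at 1.96, 1.46 and 1.19 CPM in triple mutant apices against 3.14, 1.95 and 1.58 CPM in *Mtsoc1a* and 4.32, 2.07 and 3.58 CPM in WT apices. The 2 lowest in the triple mutant were Medtr1g025250, a neighbour of Medtr1g025220 on chromosome 1, and Medtr8g023060, annotated as a LURP1-related protein. Medtr1g025250 had 0 counts in the triple mutant, 188 in *Mtsoc1a* apices and 245 in WT apices, at least 27.1-fold and at least 33.3-fold lower in the triple mutant. Medtr8g023060 had 1 count, against 238 in *Mtsoc1a* and 249 in WT apices, a ratio of 102 to WT with a 95% counting interval of 18.1 to 4031. Its WT apex level was uneven, at 0.618, 4.35 and 0.445 CPM. Medtr6g034920 and Medtr7g029030, higher in *Mtsoc1a* than in WT apices, had lower triple mutant levels when set against *Mtsoc1a* (-3.80, SE 0.44, and -1.26, SE 0.28) and were called in neither direction against WT apices (0.13, SE 0.43, and 0.69, SE 0.29).

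**Figure D4:**
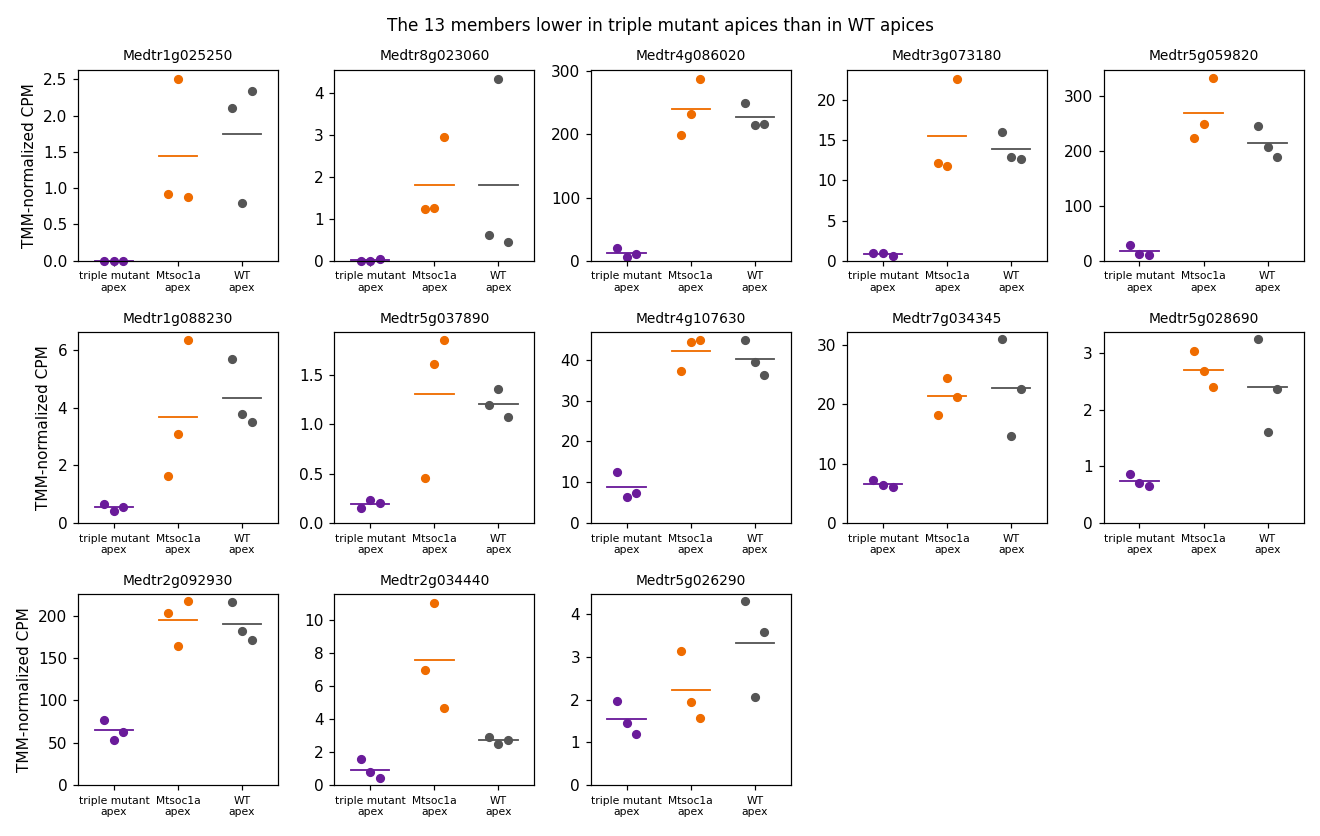
TMM-normalized CPM (y axis, own scale from 0 in each panel) of the 13 members called lower in triple mutant than in WT apices, in the 3 apex groups (x axis), 1 point per library and a line at the group mean. All 3 triple mutant points lie below all 3 WT points for each locus, and for Medtr5g026290 they overlap with *Mtsoc1a*.

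Apex libraries of the same group differed in the level of the members as a whole. Members averaging at least 1 CPM in a group were compared with their own group mean in log2(CPM + 1). In WT apices, the second library had a median deviation of -0.21 and was the lowest of the 3 for 107 of 159 members, while the first deviated by 0.16 and was the highest for 90. In the triple mutant, the first library deviated by 0.17 and was the highest for 116 of 148 members. In *Mtsoc1a* apices the deviations were 0.10, 0.01 and -0.12. In leaves they stayed between -0.07 and 0.03, and the median deviation of all loci averaging at least 1 CPM stayed between -0.03 and 0.05 in every library.

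**Figure D5:**
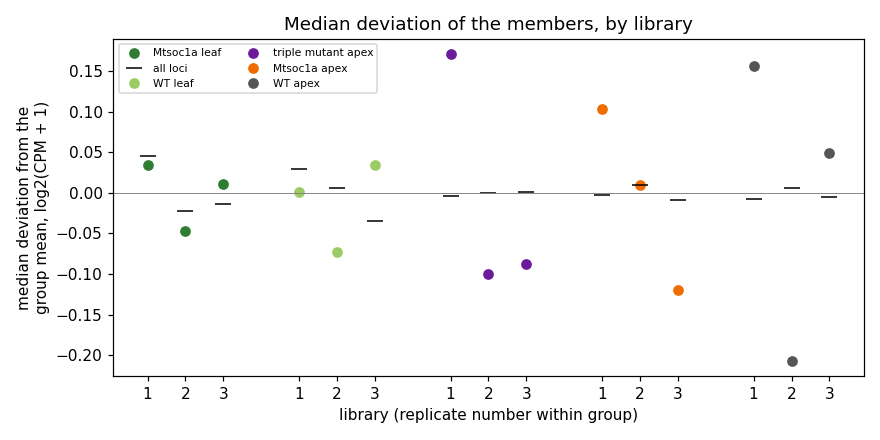
Median deviation of the members from their group mean (y axis, log2(CPM + 1), points) and that of all loci averaging at least 1 CPM in the group (dashes), for each of the 15 libraries (x axis, by group). Apex libraries reach 0.17 and -0.21, and leaf libraries stay between -0.07 and 0.03.

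Levels of other leaf loci and of apex markers are given beside these differences. The summed level of 25 loci of the study's photosynthesis and protein-chromophore linkage terms, none of them a member and all picked by the study as higher in these triple mutant samples, was 1824, 1042 and 1119 CPM in triple mutant apices, 491, 466 and 361 CPM in *Mtsoc1a* apices and 412, 313 and 466 CPM in WT apices. In leaves it was 8309 to 10557 CPM in *Mtsoc1a* and 5203 to 5889 CPM in WT, with no overlap. The second WT apex library was thus the lowest for these loci as for the members, and at 63.4 CPM it had the highest summed apex markers of the WT apices, against 47.6 and 56.0 CPM in the others. How much leaf tissue the apex samples held, and its part in the apex levels, was not tested. Without the second WT apex library, the triple mutant was called higher than WT apices for 1 member, and without the first for 9 members. With all libraries it was 2 members, beside 2.26% of loci tested. The shares over all loci without a library are not given here, so whether the shift is particular to the members is not known. These counts are a description, since both groups chose the members, and what moved them was not tested.

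Few members belonged to the lists counted. Some terms, photosynthesis among them, hold loci that the study called at least 2-fold higher in the triple mutant. The choice removed loci 2-fold higher there, so the absence of members from those terms was largely fixed in advance. Beside the 2 nitrate assimilation loci and Medtr7g029030, no member was among the loci of the other terms counted, as far as those lists were held (the defense response and transmembrane transport terms of the triple mutant were held only in part, and the nitrogen compound term of Medtr4g086020 was not among those counted), and 0 of 21 genes measured by RT-qPCR and 1 of the study's candidate flowering genes was a member. That was Medtr8g104190, a *CONSTANS-LIKE* gene of the photoperiod category, a family of zinc finger proteins with a role in day length responses in *Arabidopsis*. It had 893, 842 and 829 CPM in *Mtsoc1a* leaves and 25.5, 25.8 and 19.6 CPM in *Mtsoc1a* apices (log2 fold change 5.24, SE 0.16, adjusted p = 1.1e-07), and WT plants had 806, 714 and 832 CPM in leaves and 23.1, 20.4 and 22.0 CPM in apices. In triple mutant apices it had 41.0, 29.8 and 26.9 CPM, above every apex library of the other genotypes and 0.58 higher than WT on the log2 scale (SE 0.15), below the 2-fold limit.

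Among 220 homologs of genes bound by SOC1 in *Arabidopsis*, 3 were members. Medtr8g024590 and Medtr4g128820 are homologs of *CIPK12*, a protein kinase that works with calcium sensors, and Medtr4g010150 is a homolog of *FAD5*, a fatty acid desaturase of chloroplasts in *Arabidopsis*. Medtr8g024590 had 123, 118 and 118 CPM in *Mtsoc1a* leaves and 3.55, 3.56 and 3.04 CPM in *Mtsoc1a* apices (5.21, SE 0.12, adjusted p = 8.8e-08). Medtr4g128820 had 74.5, 73.0 and 93.3 CPM in *Mtsoc1a* leaves and 1.59, 1.45 and 2.00 CPM in *Mtsoc1a* apices (5.65, SE 0.18). Medtr4g010150 had 89.9, 82.0 and 84.4 CPM in *Mtsoc1a* leaves and 0.474, 0.328 and 0.232 CPM in *Mtsoc1a* apices (7.99, SE 0.21). None of the 3 was called between triple mutant and WT apices, at log2 fold changes of 0.54 (SE 0.26), -0.30 (SE 0.36) and -1.43 (SE 0.70).

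Leaf levels of the members were mostly even between libraries, with a median coefficient of variation of 12.7% in *Mtsoc1a* leaves and 12.2% in WT leaves. The 3 members with the widest spread in WT leaves were all of low leaf level. Medtr0001s0190 had 2.81, 6.11 and 2.71 CPM in *Mtsoc1a* leaves and 2.81, 9.99 and 3.33 CPM in WT leaves. Medtr6g037720 had 13.4, 1.13 and 1.60 CPM in *Mtsoc1a* leaves and 9.65, 2.00 and 5.05 CPM in WT leaves. Medtr8g077390 had 9.97, 20.5 and 9.09 CPM in *Mtsoc1a* leaves and 6.33, 24.4 and 10.8 CPM in WT leaves. All 3 stood at or under 0.483 CPM in every apex library, and all were called higher in *Mtsoc1a* leaves than in *Mtsoc1a* apices. For Medtr6g037720 that call (5.01, SE 1.28, adjusted p = 0.0087) was lost without *Mtsoc1a* leaf replicate 1 (3.01, adjusted p = 0.057).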

How the data were processed

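After trimming (fastp), the authors quantified Mt4.0v2 transcripts with Salmon 0.8.2 and tximport. They deposited these estimated counts for 15 libraries, unscaled, and TPM as 1 value per group of 3 libraries, with no spread. Libraries were strand-specific, with polyA enrichment and paired 150 bp reads.

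Values of 57124 transcripts were summed to 50021 loci by the identifier before the last dot, and counts were rounded. Loci with low counts were removed (edgeR's filterByExpr, count minimum of 10). Libraries were scaled with TMM. The quasi-likelihood test of edgeR 4.0.16 (R 4.3.3) was fitted across all loci that passed, on 6 leaf libraries, 9 apex libraries or the 6 *Mtsoc1a* libraries, with Benjamini-Hochberg adjustment, and a call needed an adjusted p of 0.05 or less and 2-fold. CPM in the text are TMM-normalized. DESeq2 1.42.0, other scalings, filters, thresholds and left-out replicates were alternatives. The scripts were tested on simulated data. Of 100 loci changed 2-fold, 30 were called between *Mtsoc1a* leaves and apices and 36 between *Mtsoc1a* and WT leaves. Of 100 changed 4-fold, 85 and 95 were called. Many 2-fold changes can thus be missed, and comparisons between apices were not simulated. Replicates were pools of separate plants. Depths of 13224488 to 38896407 limit precision for scarce transcripts, and floors (3 counts over a group) and counting intervals cover counting error only.

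Members and gene lists were chosen with earlier results of these data known. Named genes were the 10 highest by WT leaf to WT apex ratio and by WT leaf TPM, the 5 highest and 5 lowest by fold change in *Mtsoc1a*, up to 5 a direction by p in the other comparisons, members of lists, of runs and at thresholds, those not called and those of widest spread. Values are given for a part of them.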

Additional observations from a re-analysis of the deposited data

Results flagged for a closer look

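Medtr4g010150, the *FAD5* homolog, went in opposite directions in the 2 tissues when *Mtsoc1a* was set against WT. In leaves it had 89.9, 82.0 and 84.4 CPM in *Mtsoc1a* and 78.0, 73.8 and 78.1 CPM in WT (log2 fold change 0.18, SE 0.10, edgeR adjusted p = 0.54), so that all 3 *Mtsoc1a* libraries were higher. In apices it had 0.474, 0.328 and 0.232 CPM in *Mtsoc1a* and 0.560, 3.56 and 0.585 CPM in WT (log2 fold change -2.15, SE 0.69, edgeR adjusted p = 0.25), and all 3 *Mtsoc1a* libraries were lower. Neither comparison passed the threshold, the second WT apex library stood apart from the other WT apices, and the difference between the tissues was not tested.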

How the results depend on the processing

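The count of members called higher in *Mtsoc1a* leaves than in *Mtsoc1a* apices was 198 and stayed between 197 and 199 under all alternatives, with 0 called lower. Its median log2 difference was 4.84 as a difference of mean log2(CPM + 1) and 3.77 with library totals. Members called lower in the triple mutant stayed within 1.5 times of 13 against WT and of 19 against *Mtsoc1a* apices, at 10 to 16 and 16 to 23 with one library left out.

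Between *Mtsoc1a* and WT leaves the calls were 1 higher and 0 lower. DESeq2 gave 2 and 1, no filter 2 and 1, counts per transcript 0 higher, and adjusted p alone 1 lower. Leaving out a library gave 0 to 1 in each direction (0 higher without *Mtsoc1a* leaf replicate 2 or 3 or WT leaf replicate 1 or 3, and 1 lower without *Mtsoc1a* leaf replicate 1). Between *Mtsoc1a* and WT apices the calls were 2 higher and 0 lower. DESeq2 gave 4 and 1, no filter 1 lower, and counts per transcript 0 higher. Leaving out a library gave 0 to 3 higher (1 without *Mtsoc1a* apex replicate 2, 0 without WT apex replicate 1 or 3) and 0 to 1 lower (1 without *Mtsoc1a* apex replicate 1 or WT apex replicate 2). Between triple mutant and WT apices 2 were called higher. Adjusted p alone gave 42, DESeq2 7, no filter 1 and counts per transcript 1, and leaving out a library 0 to 9 (0 without triple mutant replicate 1, 1 without replicate 2, 4 without replicate 3, 9 without WT apex replicate 1, and 1 without WT apex replicate 2 or 3). Against *Mtsoc1a* apices 20 were called higher, 65 by adjusted p alone, and 13 to 23 with a library left out, the fewest without triple mutant replicate 1. Medtr4g128820 was at -0.30 between triple mutant and WT apices and at -0.65 to 0.022 with a library left out, above 0 without triple mutant replicate 3. Over single loci, 900 of 928 alternative values kept direction and call, 23 lost the call, 4 gained it and 1 reversed. The cause was not tested. Shares over all loci called under these alternatives are not given here, so the shifts in counts are not read as particular to the members. Under other thresholds, pseudocounts or columns of the selection, 142 to 182 of the 200 members were still chosen, and 160 with *Mtsoc1a* in place of WT, which was chosen after the data were seen.

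Same-numbered samples did not deviate together in every pair, so replicate numbers were not taken as pairs. Correlations were -0.06, 0.00 and 0.07 between *Mtsoc1a* leaves and apices. Between *Mtsoc1a* and WT leaves they were 0.34, 0.38 and 0.074, where the first and second pairs did and the third did not. Differently numbered leaf samples gave -0.38 to 0.068, below each same-numbered pair. Whether same-numbered leaf samples shared a factor was not tested. With the replicate number as a block, 199 members were called higher in *Mtsoc1a* leaves than in *Mtsoc1a* apices, 2 higher and 2 lower between *Mtsoc1a* and WT leaves, and 1 higher between *Mtsoc1a* and WT apices.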
